A study of Arabidopsis thaliana with 12 samples.

Results

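RNA-seq counts of whole Arabidopsis thaliana seedlings were compared between the med8 mutant and the Col-0 wild type, both grown on 25 nM methyl viologen. The comparison used every library of these 2 groups, 6 of the 12 libraries of the series, with 3 med8 libraries and 3 Col-0 libraries. The med8 plants were described only as a med8 mutant, so the allele and the number of independent lines are not known here, and Col-0 was the wild-type control. All seedlings were 2 weeks old and had grown from sowing on an MS-based agar medium with sucrose under long days, and in these groups the medium contained methyl viologen throughout. The other 6 libraries were med8 and Col-0 seedlings of the same age on the same medium without methyl viologen, 3 of each, and served for the comparison between media. The labels speak of triplicates and name no separate cultures, so the p-values rest on the variation among these libraries, some of which may be technical.

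Mediator is the protein complex that connects DNA-bound transcription factors to RNA polymerase II, and MED8 is a subunit of its head module. In Arabidopsis, MED8 is known from flowering time, organ growth, sugar responses and jasmonate-linked defence. Methyl viologen, the herbicide paraquat, takes electrons from photosystem I in the light and passes them to oxygen, so that superoxide and then hydrogen peroxide form in the chloroplast.

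MED8 (AT2G03070) itself was read first, as a check of the labels. It stood at 6.21, 5.47 and 4.85 CPM (the counts of a gene relative to the library total, scaled between libraries by TMM) in the med8 libraries on methyl viologen, against 22.2, 19.4 and 20.2 CPM in the Col-0 libraries. The groups did not overlap, and the log2 fold change of med8 over Col-0 was -1.90 (SE 0.11, adjusted p = 1.21e-06). Library totals of the 6 libraries lay between 33415956 and 34558068 counts in med8 and between 33350971 and 34694751 in Col-0. Of the other 36 Mediator subunit genes, 1 was called, against 23.7% of all tested genes. It was MED33A, at 34.8 CPM in med8 and 42.5 CPM in Col-0 (log2 fold change -0.29, adjusted p = 0.0381). That call was lost when any 1 of the 6 libraries was left out. The median over all 37 subunit genes was -0.01.

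The seedling label was set against tissue markers. Summed transcripts of 24 photosystem II and antenna genes made up 86030 to 103400 CPM in med8 and 80550 to 87700 CPM in Col-0. Of 7 seed storage genes, 1 was in the table, with at most 0.325 CPM in any library on methyl viologen. The 19 root markers summed to 1570 to 1620 CPM in med8, below the 2336 to 3456 CPM of Col-0, and the 7 measured floral organ genes to 0.704 to 1.07 CPM in med8, below the 3.60 to 6.03 CPM of Col-0. Fewer cells of a tissue and less RNA per cell cannot be told apart in whole seedlings. Many of the genes named in the text overlap another annotated gene: RDUF1, RRTF1, LEA7, BGLU45, MED33A, WRKY53, DREB1A, TCH2, TCH3, ERF105, SARD1, NPR1, BHLH38, BHLH101, AT2G30766, ILR3, FER1, FER2, FER4, ABCI8, F6H1, FRO3, GPX7, CAT2, CSD1, CSD3, AT1G19020, GSTU17, GSTU10, CYP81D11, CHS, FD1, PSAN, RCA, GOX1, RVE1, LNK1, LNK2, FKF1, BOA, PCL1, FLC, SPL5, COR15B, RAB18, MYC2, EBF2, PYK10, CASP1, CYP71A13, DIN10, ASN1, PAP17 and TSO2. AT2G30766 and CYP71A13 lie antisense to each other. Reads of such a pair may not have been told apart, since the strand setting of the counting is not given in the sources used here.

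The genotypes differed widely on methyl viologen. Among 20741 tested genes, 4906 (23.7%) were called at an adjusted p under 0.05, 2231 of them higher in med8 (10.8%) and 2675 lower (12.9%). At least 2-fold differences (1311 genes, 6.32%) were more often upward, with 802 genes higher (3.87%) and 509 lower (2.45%). Values of the 3 med8 libraries did not overlap those of the 3 Col-0 libraries for 9611 genes (46.3%), 4870 of the called genes among them. Leaving out med8 replicate 2 on methyl viologen left 3211 calls. The 2 genotypes on control medium, in libraries shared with neither group, differed at 1200 genes (5.79%). Replicates 1 of Col-0 and 3 of med8 on control medium stood apart from the other replicates of their groups. The number of genes higher in med8 on methyl viologen was 3500 without both, and the number called on control medium 1848.

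**Figure D1:**
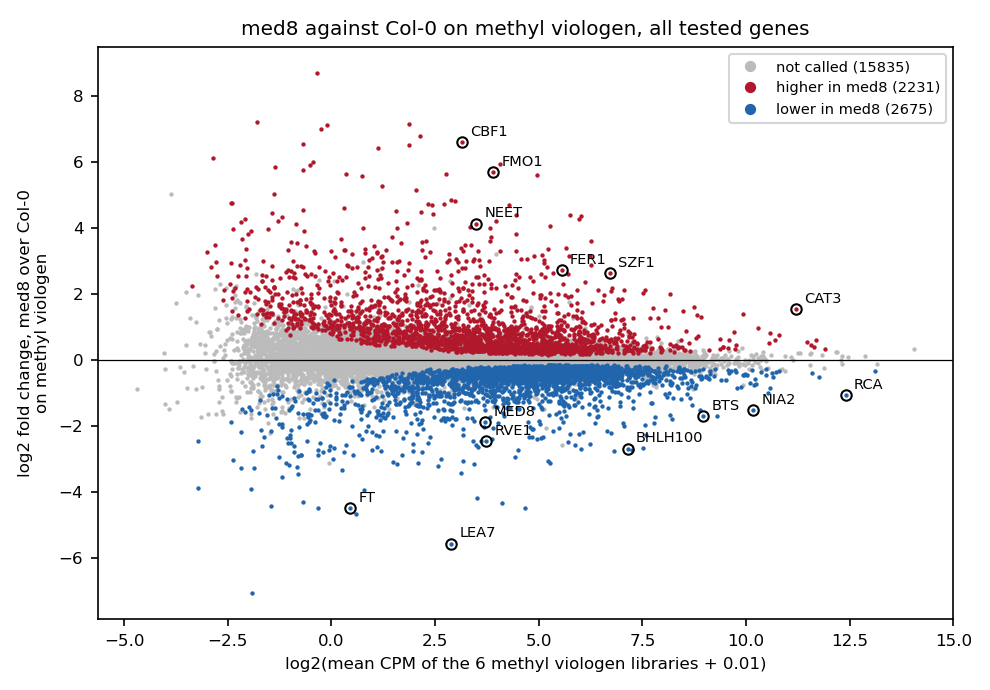
Log2 fold change of med8 over Col-0 on methyl viologen (vertical axis) against mean expression of the 6 libraries (horizontal axis, log2 CPM) for the 20741 tested genes, each a point, with called genes in colour. Genes higher in med8 by 2-fold or more outnumber those lower by as much, 802 against 509, and circled genes include FMO1 at 5.69 and LEA7 at -5.58.

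Among genes with a symbol that were higher in med8, the 6 with the smallest adjusted p were RDUF1, CBF2, CBF1, ERF104, SZF1 and NUDT21. RDUF1, which encodes a RING finger ubiquitin ligase, stood at 80.8, 78.4 and 76.2 CPM in med8, against 19.0, 20.9 and 20.3 CPM in Col-0 (log2 fold change 1.97, SE 0.07, adjusted p = 3.13e-08). NUDT21, a nudix hydrolase gene, had 41.2, 46.5 and 53.2 CPM in med8, against 8.72, 8.97 and 7.34 CPM in Col-0 (log2 fold change 2.49, adjusted p = 8.04e-07). Each med8 library exceeded each Col-0 library by over 3-fold for both genes. The other 4 are members of the list of rapid response genes to touch and wounding.

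Among genes with a symbol that were lower in med8, the 6 with the smallest adjusted p were NIA2, NIA1, ASN2, CGLD27, BT1 and CIPK3. Of these, NIA2 and NIA1 encode nitrate reductase and ASN2 an asparagine synthetase. NIA2, the more expressed of the nitrate reductase genes, had 618, 592 and 556 CPM in med8, against 1739, 1657 and 1732 CPM in Col-0 (log2 fold change -1.54, SE 0.08, adjusted p = 3.68e-07). NIA1 had 126.9, 140.4 and 129.8 CPM in med8, against 454, 419 and 508 CPM in Col-0 (log2 fold change -1.80, adjusted p = 3.68e-07). ASN2 had 94.6, 92.3 and 90.2 CPM in med8, against 358, 313 and 376 CPM in Col-0 (log2 fold change -1.92, adjusted p = 3.68e-07). On control medium the log2 fold changes of NIA2, NIA1 and ASN2 were -0.32, -0.21 and -0.17, and the difference between media was called for each, at -1.21, -1.59 and -1.75. BT1, a BTB and TAZ domain protein gene that responds to nitrate, was lower as well, at 14.5, 15.5 and 17.7 CPM in med8, against 85.9, 92.7 and 88.5 CPM in Col-0 (log2 fold change -2.49), and so were CGLD27 (-2.29) and the protein kinase gene CIPK3 (-1.43). CGA1, a GATA factor gene of greening that responds to nitrate and cytokinin, was at 1.24, 1.23 and 0.939 CPM in med8, against 13.4, 8.97 and 9.76 CPM in Col-0 (log2 fold change -3.23, adjusted p = 1.80e-06). The nitrate-responsive repressors LBD37 and LBD39 were lower too (-0.39 and -1.06), while LBD38 was at -0.19 (adjusted p = 0.247).

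Rises were ranked among genes with a symbol, non-overlapping libraries and at least 1 CPM in med8. The largest rises were of genes almost silent in Col-0 on methyl viologen. CYP96A5, a cytochrome P450 gene, had 169 counts over the 3 med8 libraries and 0 over the 3 Col-0 libraries, which makes it at least 54.8-fold higher in med8 when 3 counts are taken as the floor over the Col-0 group. RRTF1, an ERF-type factor gene, had 205 counts in med8 and 1 in Col-0, a ratio of 199 (95% exact interval 35.4 to 7910, counting error only), and its med8 libraries were uneven at 0.549, 0.820 and 4.07 CPM. CYP76C5 had 131 counts in med8 and 1 in Col-0 (ratio 127, interval 22.5 to 5070), a call that was lost without any 1 of the 6 libraries except med8 replicate 3. PUM8, a pumilio RNA-binding protein gene, had 148 in med8 and 2 in Col-0 (ratio 72, interval 19.6 to 600). BAP2, an inhibitor of cell death, had 8.70, 9.95 and 3.00 CPM in med8, against 0.0542, 0 and 0.0854 CPM in Col-0 (log2 fold change 7.15, adjusted p = 0.000179). The NAC factor genes NAC061 and NAC090 showed the same ordering, with log2 fold changes of 6.79 and 6.51, and NAC061 had 12.02, 11.78 and 2.35 CPM in med8, against 0.0542, 0.0580 and 0.114 CPM in Col-0. CRK37 (5.64), ALD1 (5.13), FMO1 (5.69), CBF1 (6.59) and the RING protein gene ARI12 (4.85) made up the remainder of the 12. In med8 replicate 3 the values of FMO1, ALD1, BAP2, NAC061, NAC090, CRK37 and ARI12 were the lowest of the 3. That they were still above each Col-0 library was a condition of the ranking.

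LEA7, a late embryogenesis abundant protein gene, fell most among genes with a symbol, non-overlapping libraries and at least 1 CPM in Col-0. LEA7 stood at 0.289, 0.246 and 0.365 CPM in med8, against 15.5, 6.33 and 21.8 CPM in Col-0 (log2 fold change -5.58, SE 1.10, adjusted p = 0.0039). The ranking required every med8 library to be below every Col-0 library, and the Col-0 libraries differed among themselves. FT and SEP3 followed at -4.51 and -3.96. The others of the 12 were CGA1, SAG29 (-3.17), the defensin-like gene PDF1.4 (-3.15), WRKY49 (-3.10), the marneral synthase gene MRN1 (-3.02), FLA6 (-2.93), BGLU45 (-2.89), CRK30 (-2.81) and PEN3 (AT5G36150, a putative triterpene synthase gene, -2.81). MRN1 was near the threshold (adjusted p = 0.0489), and its call was lost in 11 settings, among them the omission of any 1 of the 6 libraries except Col-0 replicate 3. The call of FLA6 was lost without med8 replicate 2. SAG29, a SWEET-type sugar transporter gene, had 2.25, 1.86 and 2.35 CPM in med8, against 20.8, 23.8 and 13.7 CPM in Col-0.

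Genes of the rapid response to touch and wounding were higher in med8 almost without exception. Like the other lists, this one was chosen with earlier results of these data known. Of 20 tested genes, 19 were called higher and none lower, against 10.8% and 12.9% of all genes, and their median log2 fold change was 2.94, against 0.01 over all genes. WRKY53 was the one not called (0.92, adjusted p = 0.177). SZF1, a zinc finger protein gene of salt and touch responses, had 155, 185 and 198 CPM in med8, against 25.4, 29.9 and 32.5 CPM in Col-0 (log2 fold change 2.62, SE 0.14, adjusted p = 5.62e-07). ZAT10, a zinc finger repressor gene, had 85.2, 90.5 and 99.2 CPM in med8, against 7.10, 8.33 and 11.04 CPM in Col-0 (log2 fold change 3.38). Levels in the med8 libraries were at least 4 times those of any Col-0 library for both.

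The CBF factors, which switch on cold-response genes, were among these. CBF2 had 27.6, 27.2 and 33.7 CPM in med8, against 1.36, 2.00 and 1.48 CPM in Col-0 (log2 fold change 4.19, SE 0.19, adjusted p = 2.92e-07). CBF1 had 14.8, 16.2 and 21.7 CPM in med8, against 0.108, 0.232 and 0.199 CPM in Col-0 (log2 fold change 6.59), and DREB1A, also called CBF3, averaged 30.5 CPM in med8 and 3.09 CPM in Col-0 (3.31). These 3 neighbouring genes are near copies, and reads may have been shared between them. They were the only members of the list called on control medium, where 2.81% of all genes were called higher. Each was higher in med8 there too, at 1.51, 1.16 and 0.89.
The calcium-binding protein genes TCH2 (1.63), TCH3 (2.12), CML37 (4.70) and CML38 (3.26), the cell wall enzyme gene TCH4 (1.99) and the ERF factor genes ERF5 (1.72), ERF6 (2.25), ERF104 (1.97) and ERF105 (3.30) were also higher. TCH2 had 49.1, 53.2 and 57.0 CPM in med8, against 16.4, 16.9 and 18.2 CPM in Col-0 (adjusted p = 1.03e-06). The mean of log2(CPM + 1) over the list was 4.83, 5.04 and 5.13 in the med8 libraries and 2.45, 2.69 and 2.78 in the Col-0 libraries. Without any 1 library of the comparison the count stayed at 19. Clock genes differed between the same libraries, and their part in the CBF difference was not tested.

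The promoters of SZF1 and TCH2 are printed because they hold several copies of motifs known from such genes. Both are the 250 bases before the RefSeq start of the gene on assembly TAIR10.1, 5′ to 3′ on the gene's strand. In SZF1 (chr3:20775970-20776219, plus strand) the capitals mark the W-box core TTGAC, the binding site of WRKY factors, or its complement, in 4 copies. In TCH2 (chr5:14999620-14999869, minus strand) they mark the rapid stress response element CGCGTT on either strand, in 4 matches that overlap in pairs.
SZF1: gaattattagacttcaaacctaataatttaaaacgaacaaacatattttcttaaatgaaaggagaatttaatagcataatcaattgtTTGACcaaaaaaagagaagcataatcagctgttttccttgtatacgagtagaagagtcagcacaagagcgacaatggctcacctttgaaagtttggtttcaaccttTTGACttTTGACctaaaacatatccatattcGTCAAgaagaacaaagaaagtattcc
TCH2: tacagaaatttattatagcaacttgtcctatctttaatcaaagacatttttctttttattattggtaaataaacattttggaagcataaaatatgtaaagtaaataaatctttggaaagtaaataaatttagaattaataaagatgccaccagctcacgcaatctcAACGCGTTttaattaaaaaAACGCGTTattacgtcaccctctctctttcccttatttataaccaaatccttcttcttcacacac
A match is a description of the letters only. The W-box core, counted on either strand from 250 bases before to 50 after the start, occurred in 51.3% of the promoters of all tested genes with one, in 56.2% of those of genes higher in med8, in 64.2% of those higher by at least 2-fold, in 49.0% of those lower and in 52.3% of those lower by at least 2-fold. The element CGCGTT occurred in 3.76% of all promoters, 5.29% of those higher, 7.11% of those at least 2-fold higher, 2.81% of those lower and 3.14% of those at least 2-fold lower. CGCG, the core of CAMTA factor sites and part of CGCGTT, occurred in 13.8% of all promoters, 17.5% of those higher, 18.6% of those at least 2-fold higher, 11.9% of those lower and 10.6% of those at least 2-fold lower. The GCC-box GCCGCC of ERF factors occurred in 2.57% of all promoters, 2.92% of those higher and 2.13% of those lower. Among those at least 2-fold higher and at least 2-fold lower its shares were 3.49% and 1.38%.

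Genes of salicylic acid synthesis and signalling were higher in med8 on methyl viologen. Of 29 tested genes, 17 were called higher and none lower (median log2 fold change 1.59), against 10.8% and 12.9% of all genes. On control medium none was higher and 1, PR1, was lower, against 2.81% and 2.98% of all genes there. The mean of log2(CPM + 1) over the list was uneven on control medium, at 3.23, 3.53 and 2.79 in med8 and 2.78, 4.29 and 3.67 in Col-0. On methyl viologen it was 4.34, 4.7 and 4.12 in med8 and 2.73, 3.02 and 2.93 in Col-0. ICS1, the main enzyme gene of salicylic acid synthesis, had 86.8, 102.4 and 58.2 CPM in med8, against 21.0, 23.5 and 22.1 CPM in Col-0 (log2 fold change 1.89, SE 0.29, adjusted p = 0.000838). PBS3, which acts in a later step of that pathway, had 78.3, 97.7 and 44.0 CPM in med8, against 3.79, 5.34 and 4.10 CPM in Col-0 (log2 fold change 4.06). FMO1, which makes the systemic immunity signal N-hydroxypipecolic acid, had 37.5, 39.7 and 10.7 CPM in med8, against 0.406, 0.493 and 0.797 CPM in Col-0 (log2 fold change 5.69, adjusted p = 0.000134). The groups were apart for all 3, and med8 replicate 3 was the lowest med8 library for each.

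ALD1, which acts upstream of FMO1, was at 8.09, 10.9 and 5.14 CPM in med8, against 0.271, 0.203 and 0.199 CPM in Col-0. The factor genes SARD1 (2.84), CBP60G (2.59), WRKY70 (4.27) and WRKY54 (3.73) were higher, as were the regulators EDS1 (0.93) and PAD4 (0.92). WRKY70 had 110, 152 and 97.1 CPM in med8, against 3.85, 7.25 and 7.57 CPM in Col-0 (adjusted p = 3.54e-05). The receptor genes NPR3 and NPR4 were higher at 0.93 and 0.45, and NPR1 was at 0.21 (adjusted p = 0.167). The classical output genes were not called. PR1 had 7.28, 10.6 and 2.19 CPM in med8, against 0.515, 3.95 and 1.88 CPM in Col-0 (log2 fold change 1.67, SE 1.38, adjusted p = 0.426), and PR2 had 36.3, 61.6 and 27.9 CPM in med8, against 16.9, 13.3 and 11.4 CPM in Col-0 (adjusted p = 0.339). The libraries of the 2 groups overlapped for PR1 and not for PR2. The list held 15 or 16 higher members when any 1 of the 6 libraries was left out.

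Cysteine-rich receptor-like kinases, cell surface kinases of stress and immune signalling, divided. Of 26 tested, 6 were higher and 5 lower (median 0.24), against 10.8% and 12.9% of all genes. The higher count was 3 without Col-0 replicate 1 and 10 without Col-0 replicate 1 on control medium, and the lower count was 3 without any 1 of the 6 libraries except med8 replicate 2. CRK36 was higher, at 26.0 CPM in med8 and 2.15 CPM in Col-0 on average (3.6), and CRK37 at 13.3 CPM in med8 and 0.265 CPM in Col-0 (5.64). CRK21 was lower, at 28.6 CPM in med8 and 62.1 CPM in Col-0 (-1.12, adjusted p = 6.78e-06), and CRK22 at 23.9 CPM in med8 and 43.9 CPM in Col-0 (-0.88). Among 8 cell death regulators, BAP2, its relative BAP1 (2.70) and AT3G28580 (2.57) were higher, EX2 was lower (-0.28, a call lost without any of 4 of the 6 libraries), and the other 4 were not called. BAP1 had 5.43, 7.35 and 5.87 CPM in med8, against 0.650, 1.22 and 0.996 CPM in Col-0.

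**Figure D2:**
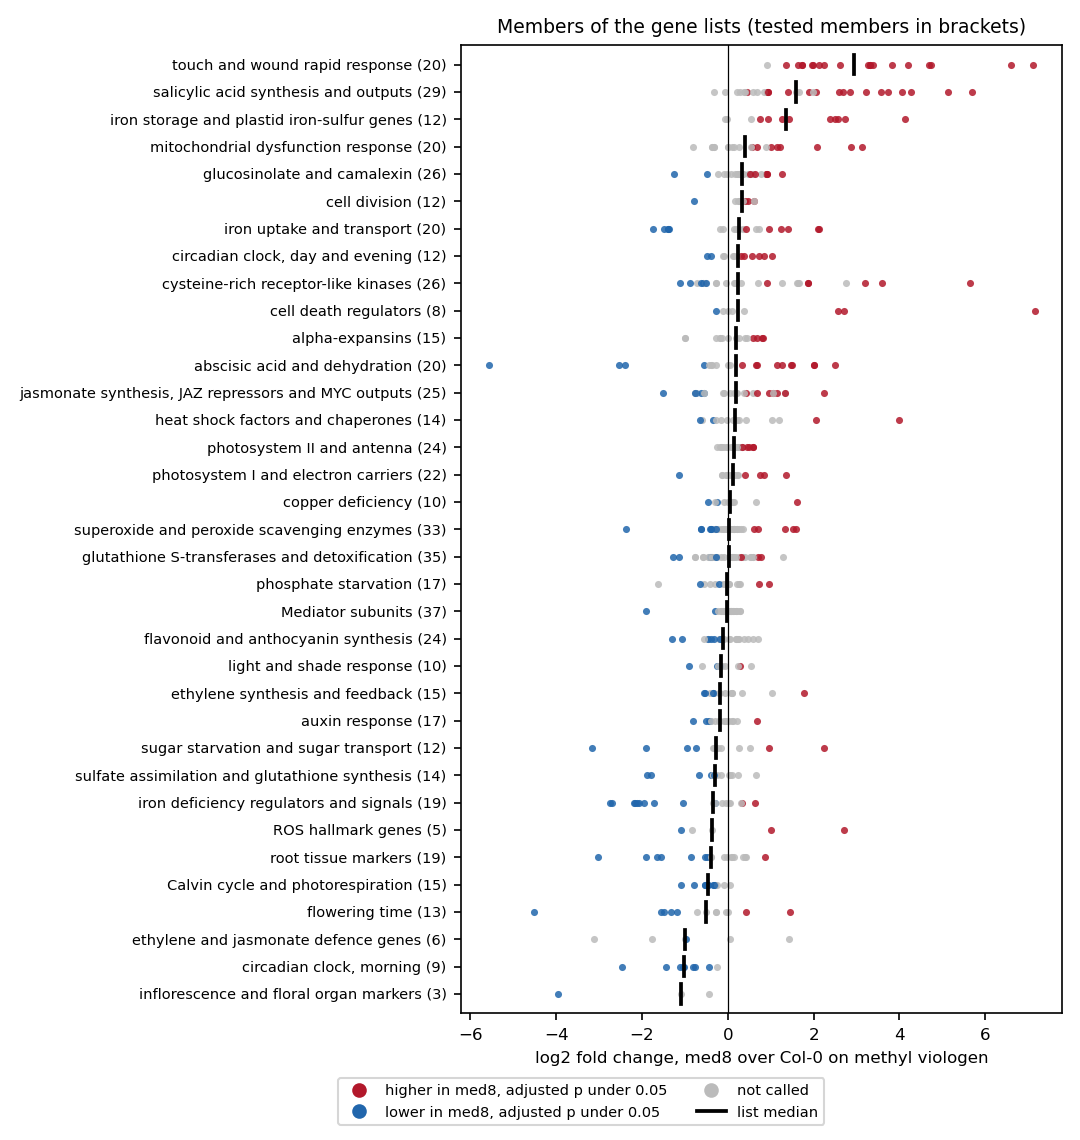
Log2 fold change of med8 over Col-0 on methyl viologen for every tested member of 35 gene lists, 1 row per list with the number of tested members in brackets, 1 point per gene and a black bar at the list median. Touch and wound genes, with a median of 2.94, salicylic acid genes with 1.59 and iron storage genes with 1.35 stand at the top, and morning clock genes with -1.02 near the bottom.

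**Figure D3:**
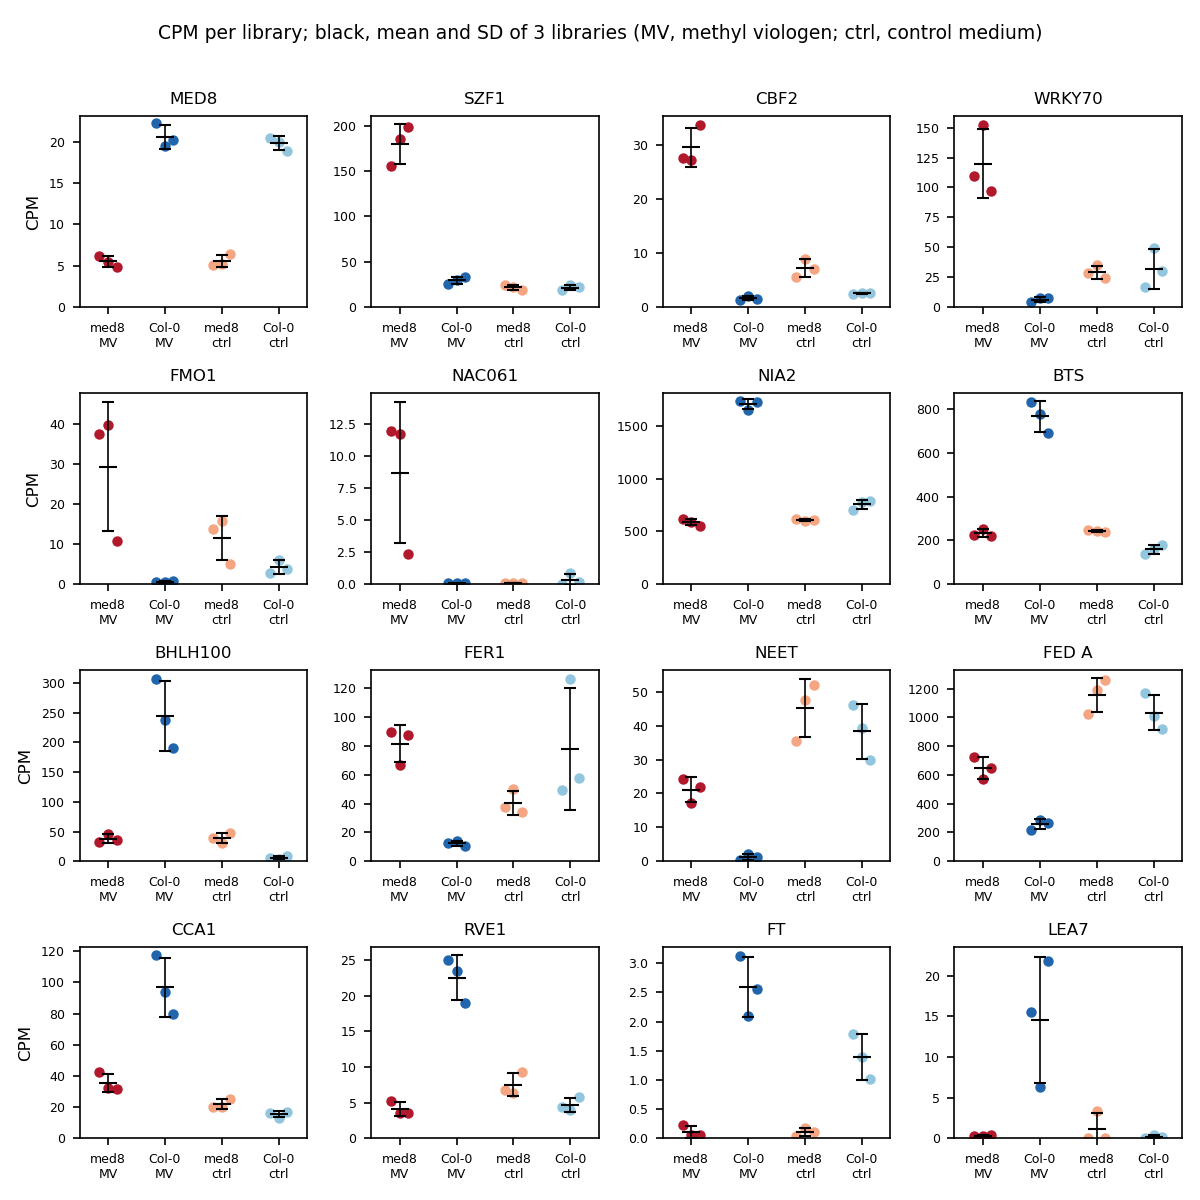
CPM of 16 genes in each library of the 4 groups, with points for libraries and black bars for the mean and SD of 3. In the upper row the 3 med8 libraries on methyl viologen lie below the Col-0 libraries for MED8 and above them for SZF1, CBF2 and WRKY70.

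The lists of iron genes differed from each other in direction. The regulators of the iron deficiency response, many of which are transcribed when a plant lacks iron, were mostly lower in med8. Of 19 tested, 10 were called lower and 2 higher (median -0.34), against 12.9% and 10.8% of all genes. The clade Ib factor genes BHLH38 and BHLH100 were lowest. BHLH100 had 32.0, 46.1 and 35.3 CPM in med8, against 306, 237 and 191 CPM in Col-0 (log2 fold change -2.70, SE 0.27, adjusted p = 5.09e-05). BHLH38 had 34.6, 48.2 and 36.3 CPM in med8, against 315, 266 and 214 CPM in Col-0 (log2 fold change -2.74), and BHLH39 and BHLH101 were at -2.16 and -2.12. These factors are close paralogs, so reads may have been shared between them. Every med8 library was below every Col-0 library for all 4.

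The short genes AT1G47395, AT1G47400 and AT2G30766, iron-responsive loci on the same list, moved with them at -2.18, -1.95 and -2.06. AT2G30766 had 17.2, 20.1 and 15.1 CPM in med8, against 79.1, 69.8 and 69.4 CPM in Col-0 (adjusted p = 1.44e-06). BTS, a ubiquitin ligase gene that limits the response, had 227, 253 and 218 CPM in med8, against 832, 779 and 692 CPM in Col-0 (log2 fold change -1.72, SE 0.11, adjusted p = 1.75e-06), and PYE, a repressor gene, 18.3, 21.1 and 20.4 CPM in med8, against 43.2, 40.0 and 40.4 CPM in Col-0 (-1.05). The master regulator of root iron uptake, FRU (also FIT), averaged 8.51 CPM in med8 and 6.90 CPM in Col-0 (0.30, adjusted p = 0.406), and the upstream factor ILR3 79.8 CPM in med8 and 78.9 CPM in Col-0 (0.02). The 10 calls downward remained 10 in count without any 1 library of the comparison, while the 2 upward were 1 without any of these except Col-0 replicate 3.

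On control medium the ordering of these genes was the other way round. There 9 of the 19 were called higher in med8 and none lower, against 2.81% and 2.98% of all genes. BHLH100 averaged 38.6 CPM in med8 and 6.05 CPM in Col-0 on control medium (log2 fold change 2.67, adjusted p = 0.00119), and BTS averaged 243 CPM in med8 and 159 CPM in Col-0 (0.61, adjusted p = 0.00822). The difference between the media was called for 11 of the 19 genes, 10 of them in the downward direction. Of all genes it was called for 13.9%, 7.66% in the downward direction. It was -5.37 (SE 0.39) for BHLH100 and -2.34 for BTS.

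The promoter of BTS is shown because it carries 3 G-boxes, CACGTG, a site of bHLH and bZIP factors that 8.63% of all promoters held. The share was similar among genes called higher in med8 and genes called lower, 9.83% and 9.54%. Among genes at least 2-fold higher it was 9.10%, and among those at least 2-fold lower 13.0%. The sequence is the 250 bases before the gene start on TAIR10.1 (chr3:6273716-6273965, plus strand, 5′ to 3′), with the G-boxes in capitals.
BTS: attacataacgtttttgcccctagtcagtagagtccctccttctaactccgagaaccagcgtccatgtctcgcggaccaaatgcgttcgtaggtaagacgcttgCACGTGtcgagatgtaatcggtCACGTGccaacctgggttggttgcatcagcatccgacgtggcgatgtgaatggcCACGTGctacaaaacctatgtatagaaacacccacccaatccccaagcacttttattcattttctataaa
Of the 19 promoters of the regulator list, 3 held a G-box within 250 bases before to 50 after the start.

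Ferritins and other iron storage and plastid iron-sulfur genes were higher in med8. Of 12 tested, 9 were called higher and none lower (median 1.35), against 10.8% and 12.9% of all genes. NEET, an iron-sulfur protein gene, had 24.2, 17.1 and 22.0 CPM in med8, against 0.271, 2.15 and 1.25 CPM in Col-0 (log2 fold change 4.12, SE 0.41, adjusted p = 5.25e-05). FER1, the main leaf ferritin gene, had 89.8, 66.6 and 87.7 CPM in med8, against 12.3, 14.0 and 10.7 CPM in Col-0 (log2 fold change 2.72, adjusted p = 0.000163). FER4 had 19.8, 19.2 and 20.3 CPM in med8, against 2.52, 3.83 and 4.13 CPM in Col-0 (2.50, adjusted p = 2.42e-06). The groups were apart for each of the 3. FER2 (1.27), FER3 (0.75), the vacuolar transporter-like genes VTL1 (2.57) and VTL5 (0.93), the iron-sulfur scaffold gene ABCI8 (1.43) and ENH1 (2.39), a rubredoxin-like protein gene, were also called. On control medium 1 of the 12 was higher and 1 lower, against 2.81% and 2.98% of all genes there. FER1 averaged 40.5 CPM in med8 and 77.9 CPM in Col-0 on control medium (adjusted p = 0.0969).

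Uptake and transport genes divided, with 6 of 20 higher and 5 lower (median 0.25), against 10.8% and 12.9% of all genes. Those higher were the root ferric reductase gene FRO2 (1.24), the nicotianamine synthase genes NAS1 (0.42) and NAS2 (2.12), the coumarin synthesis genes CYP82C4 (2.11) and F6H1 (0.95), and AT3G12900 (1.41). CYP82C4 had 243, 201 and 203 CPM in med8, against 37.5, 54.0 and 58.0 CPM in Col-0 (adjusted p = 0.0036). FRO2 had 189, 177 and 181 CPM in med8, against 65.7, 89.5 and 76.8 CPM in Col-0 (adjusted p = 0.0217). The main transporter IRT1 averaged 234 CPM in med8 and 149 CPM in Col-0 and was not called (0.65, adjusted p = 0.234).
Those lower were FRO3, a mitochondrial reductase gene (-1.75), the shoot-to-root iron signalling transporter gene OPT3 (-1.38), NAS4 (-1.40), ZIF1 (-1.48) and the vacuolar exporter gene NRAMP4 (-1.40). OPT3 had 230, 251 and 208 CPM in med8, against 612, 556 and 618 CPM in Col-0 (SE 0.12, adjusted p = 1.29e-05). Root markers summed lower in med8 in the same libraries, with 7 of 19 called lower and 1 higher, and their part in these values was not tested. The count of higher uptake genes fell to 2 without med8 replicate 1 or Col-0 replicate 1 and to 3 without Col-0 replicate 2, and was 10 without both control-medium libraries that stood apart.

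**Figure D4:**
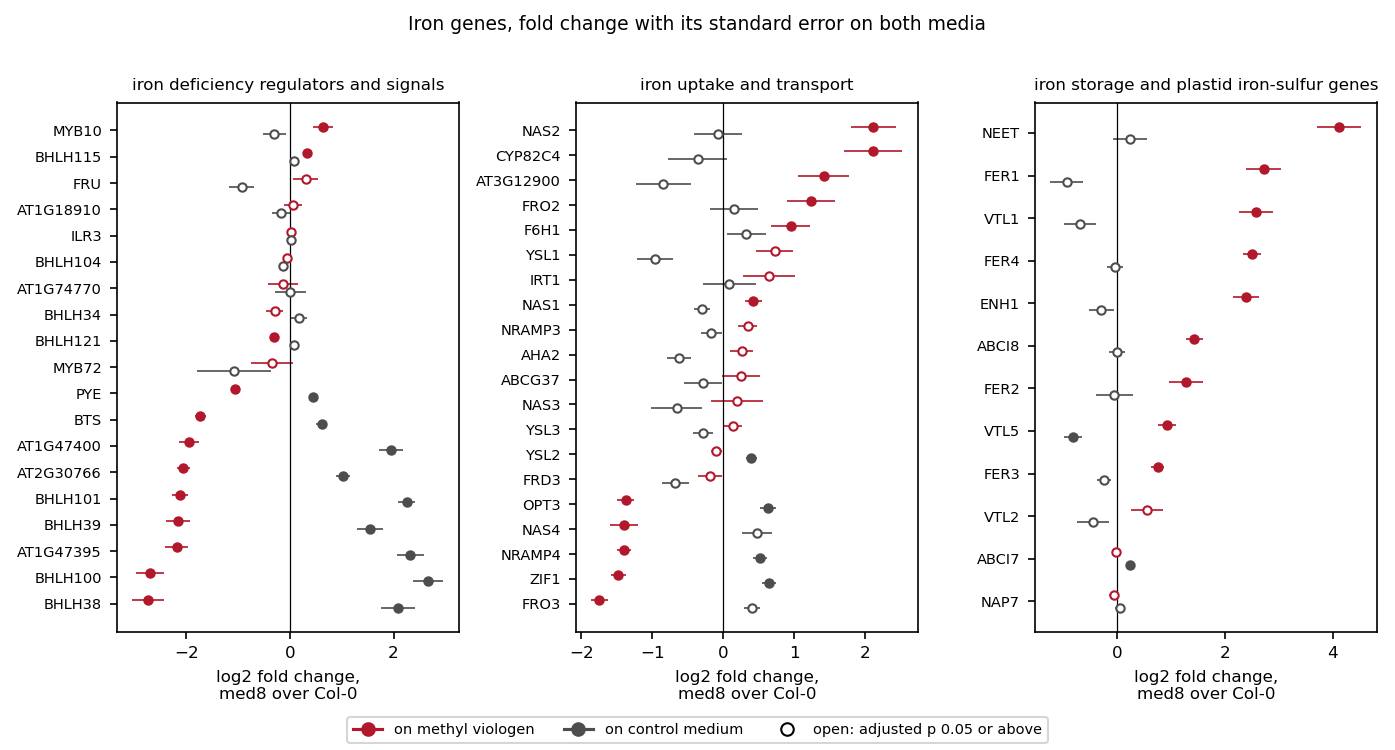
Log2 fold change of med8 over Col-0 with its SE on methyl viologen (red) and control medium (grey) for 3 lists of iron genes, with open points for genes not called. Regulators such as BHLH38 lie at -2.74 on methyl viologen and at 2.08 on control medium, while ferritins and NEET lie to the right on methyl viologen.

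Scavenging enzymes did not move as 1 group. Of 33 tested, 5 were higher and 8 lower (median 0.03), against 10.8% and 12.9% of all genes. Without med8 replicate 3 on control medium, 8 were higher. FSD1, the plastid iron superoxide dismutase gene, had 654, 586 and 677 CPM in med8, against 177, 230 and 232 CPM in Col-0 (log2 fold change 1.58, SE 0.12, adjusted p = 5.87e-06). CAT3 (AT1G20620, catalase 3) had 3496, 3291 and 3753 CPM in med8, against 842, 1433 and 1373 CPM in Col-0 (1.53, adjusted p = 0.000399). SAPX, the stromal ascorbate peroxidase gene, had 82.4, 78.0 and 83.0 CPM in med8, against 27.4, 34.8 and 34.5 CPM in Col-0 (1.33). The groups were apart for these 3. APX1 (0.71) and CAT1 (0.61) were higher as well.
Lower in med8 were GPX7 (-2.38), CAT2 (AT4G35090, catalase 2, -0.63), GPX1 (-0.62), GR, the plastid glutathione reductase gene (-0.41), APX6 (-0.40), MDAR4 (-0.39), CCS (-0.30) and CSD3 (-0.27). CAT2, the leaf catalase gene, had 617, 473 and 500.0 CPM in med8, against 801, 906 and 749 CPM in Col-0 (adjusted p = 0.00327). The copper-zinc superoxide dismutase genes CSD1 and CSD2 were at 0.36 and 0.14 (adjusted p = 0.117 and 0.457). Of 10 copper deficiency genes, FRO4 was higher (1.61) and COPT6 (-0.46) and CCH (-0.24) were lower (median 0.05), and the call of CCH was lost without any 1 of the 6 libraries.

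Mitochondrial stress genes were higher in part, 8 of 20 with none lower (median 0.40), against 10.8% and 12.9% of all genes. The efflux protein genes AT2G04070 and AT2G04050 were at 3.13 and 2.08. AT2G04070 had 72.6, 131 and 80.7 CPM in med8, against 9.67, 13.3 and 9.39 CPM in Col-0 (adjusted p = 1.5e-05). BCS1 (AT3G50930) had 112, 178 and 118 CPM in med8, against 14.7, 22.0 and 18.8 CPM in Col-0 (2.88, adjusted p = 0.000436). These libraries did not overlap. AOX1A, the alternative oxidase gene, averaged 188 CPM in med8 and 117 CPM in Col-0 (0.69), and AOX1D (1.15), NDA2 (0.56), NDB4 (1.01) and the glucosyltransferase gene UGT74E2 (1.21) were higher too. The list held 5 members called higher without med8 replicate 2, and 1 called lower without Col-0 replicate 2. AT2G21640, which RefSeq names a marker of the oxidative stress response, averaged 28.1 CPM in med8 and 36.2 CPM in Col-0 (-0.37, adjusted p = 0.0708). Of 5 hallmark genes of reactive oxygen, 2 were higher and 1 lower (median -0.37), AT1G57630 at 2.70, AT1G19020 at 1.01 and TI1 at -1.10, and the first 2 calls were lost without most of the single libraries.

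Glutathione transferases and other detoxification genes showed 3 of 35 higher and 5 lower (median 0.02), close to the shares of all genes, 10.8% higher and 12.9% lower. The higher count was 1 without any 1 of the 6 libraries, the lower count 3 without med8 replicate 2 or Col-0 replicate 2, and without med8 replicate 3 on control medium 6 were higher and 11 lower. GSTU17 had the largest call, at 14.4 CPM in med8 and 34.9 CPM in Col-0 on average (-1.27, adjusted p = 1.51e-05), with CYP81D11 at -1.14, GSTU10 at 0.70 and GSTU9 at 0.77. Flavonoid and anthocyanin genes were called lower in 6 of 24 cases and higher in none (median -0.10), and 3 were lower without med8 replicate 2 or Col-0 replicate 1. Among them MYBL2, a repressor gene of anthocyanin synthesis, had 27.0, 24.5 and 25.7 CPM in med8, against 61.1, 73.1 and 57.2 CPM in Col-0 (-1.31, adjusted p = 2.00e-05), while the synthesis genes CHS, DFR and LDOX were at 0.23, 0.58 and 0.04 and not called. Near-identical family members may share reads in both lists.

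Most photosystem genes were not called. Of 22 photosystem I and electron carrier genes 4 were higher and 1 lower (median 0.11), and of 24 photosystem II and antenna genes 6 were higher and none lower (median 0.15), against 10.8% and 12.9% of all genes. The 6 became 2 without med8 replicate 1, Col-0 replicate 1 or Col-0 replicate 3, and 3 without med8 replicate 2 or Col-0 replicate 2. The ferredoxin genes went apart. FED A, the main leaf ferredoxin gene, had 726, 574 and 650 CPM in med8, against 218, 286 and 263 CPM in Col-0 (log2 fold change 1.35, SE 0.13, adjusted p = 4.36e-05). FD1, a minor ferredoxin gene, had 99.3, 86.4 and 82.7 CPM in med8, against 211, 186 and 194 CPM in Col-0 (-1.14, adjusted p = 1.04e-05). PSAF and PSAN, photosystem I subunit genes on the side of the electron donor, were higher at 0.75 and 0.85.
Calvin cycle and photorespiration genes were lower, 11 of 15 with none higher (median -0.45), against 12.9% and 10.8% of all genes. RCA, the Rubisco activase gene, had 3980, 3312 and 3114 CPM in med8, against 7587, 7723 and 6795 CPM in Col-0 (-1.09, SE 0.13, adjusted p = 0.000112). RBCS1B was at -0.78, SHM1 at -0.52, GOX1 at -0.45 and GAPB at -0.47. None of the 15 was called on control medium, against 5.79% of all genes, and their median there was 0.28. Without med8 replicate 2, med8 replicate 3 or Col-0 replicate 1, 7 of the 15 were called.

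Clock genes of the morning were lower in med8, 8 of 9 tested (median -1.02), against 12.9% of all genes. RVE1, a morning factor gene of auxin and chlorophyll control, had 5.20, 3.525 and 3.495 CPM in med8, against 25.1, 23.5 and 19.1 CPM in Col-0 (log2 fold change -2.47, SE 0.21, adjusted p = 1.25e-05). CCA1, a core oscillator gene, had 42.5, 32.1 and 31.9 CPM in med8, against 117, 93.8 and 79.7 CPM in Col-0 (-1.45, adjusted p = 0.000104). LHY, its close relative, had 18.8, 18.4 and 12.8 CPM in med8, against 23.7, 18.6 and 16.9 CPM in Col-0, and was not called (-0.25, adjusted p = 0.307). The groups were apart for RVE1 and CCA1 and overlapped for LHY. EPR1 (-1.11), LNK2 (-1.05), RVE2 (-1.02), RVE8 (-0.81), LCL1 (-0.76) and LNK1 (-0.43) were the others.
Of 12 day and evening genes 6 were higher and 2 lower (median 0.24), against 10.8% and 12.9% of all genes. Without med8 replicate 3 or Col-0 replicate 2, 1 was lower. FKF1, a blue light receptor gene of the afternoon, had 68.8, 67.8 and 68.6 CPM in med8, against 26.4, 35.3 and 38.9 CPM in Col-0 (1.03, adjusted p = 7.78e-05). BOA (0.84), PRR5 (0.73), GI (0.56), PRR3 (0.39) and PCL1 (0.32) were higher, PRR9 (-0.49) and PRR7 (-0.40), which peak earlier in the day, were lower, and TOC1 was at 0.15 (adjusted p = 0.174). The mean log2(CPM + 1) of the morning genes minus that of the day and evening genes was -1.13, -1.23 and -1.28 in the med8 libraries and 0.28, -0.07 and -0.25 in the Col-0 libraries on methyl viologen. On control medium it was -1.36, -1.28 and -1.14 in med8 and -1.72, -1.90 and -1.75 in Col-0. So the med8 libraries had the lower index on methyl viologen and the higher one on control medium. The med8 values of the 2 media overlapped, while every Col-0 library on methyl viologen was above every Col-0 library on control medium. The hour of harvest is not given in the sources used here. A difference in harvest time between groups therefore cannot be told apart from one of genotype or medium.

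The promoters of CCA1 and FKF1 are given as a morning and an afternoon example, each as the 250 bases before the gene start on TAIR10.1, plus strand, 5′ to 3′. Capitals mark the G-box in CCA1 (chr2:19245341-19245590) and the evening element AAATATCT or its complement in FKF1 (chr1:25508389-25508638).
CCA1: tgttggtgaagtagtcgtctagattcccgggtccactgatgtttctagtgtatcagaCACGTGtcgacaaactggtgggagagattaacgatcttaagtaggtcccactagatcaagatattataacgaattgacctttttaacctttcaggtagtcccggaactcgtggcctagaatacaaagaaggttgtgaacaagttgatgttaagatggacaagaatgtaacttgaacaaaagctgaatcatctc
FKF1: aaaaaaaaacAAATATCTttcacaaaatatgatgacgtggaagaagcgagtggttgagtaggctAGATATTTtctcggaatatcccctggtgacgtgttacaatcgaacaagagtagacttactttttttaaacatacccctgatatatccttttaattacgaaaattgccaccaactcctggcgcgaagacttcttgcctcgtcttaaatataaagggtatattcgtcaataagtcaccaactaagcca
A G-box stood in 7 of the 9 promoters of the morning list (77.8%) and in 4 of the 12 of the day and evening list, against 8.63% of all promoters, and in 4 of the 9 and 4 of the 12 when only the bases before the start were searched. The evening element stood in 7 of the 12 (58.3%), against 5.97% of all promoters, 8.52% of those of genes higher in med8 and 5.76% of those of genes lower. Among genes at least 2-fold higher and at least 2-fold lower the shares were closer, 7.86% and 7.27%.

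**Figure D5:**
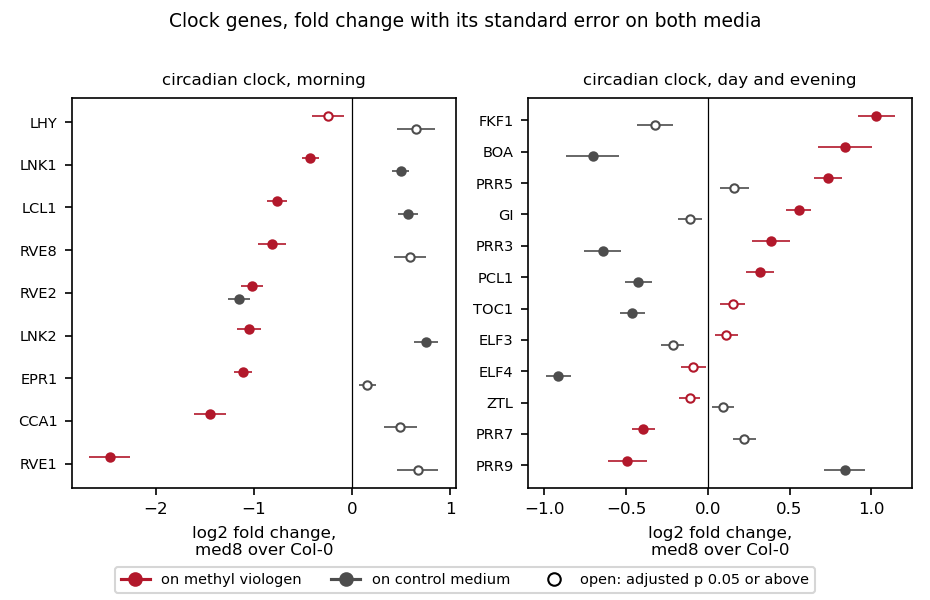
Log2 fold change of med8 over Col-0 with its SE on methyl viologen (red) and control medium (grey) for clock genes, with open points for genes not called. On methyl viologen the morning genes lie left of 0, down to -2.47 for RVE1, and FKF1 lies furthest right among the day and evening genes at 1.03.

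Several flowering genes were lower in med8. FT, the mobile signal of flowering, had 0.231, 0.0547 and 0.0522 CPM in med8, against 3.12, 2.09 and 2.56 CPM in the Col-0 libraries (log2 fold change -4.51, SE 0.45, adjusted p = 4.39e-05), and without methyl viologen its difference was -3.70 (adjusted p = 0.00322). SOC1, a downstream integrator gene, had 16.6, 18.7 and 19.8 CPM in med8, against 49.7, 53.5 and 35.6 CPM in Col-0 (-1.33, adjusted p = 4.76e-05). FLC, the repressor of FT, had 3.06, 3.25 and 3.26 CPM in med8, against 1.14, 0.783 and 1.59 CPM in Col-0 (1.44, adjusted p = 0.00808), and was higher on control medium too (1.68). The libraries of the 2 groups were apart for the 3 genes. FUL (-1.57), SPL5 (-1.17) and MAF5 (-1.48) were lower and SVP (0.43) was higher. In total 5 of 13 tested genes were lower and 2 higher (median -0.51), against 12.9% and 10.8% of all genes. Of the floral organ genes 3 passed the filter on low counts and SEP3 was called, at 0.289, 0.191 and 0.130 CPM in med8, against 3.06, 2.47 and 4.07 CPM in Col-0 (-3.96, adjusted p = 4.04e-05).

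Abscisic acid and dehydration genes moved both ways, 10 of 20 higher and 4 lower (median 0.19), against 10.8% and 12.9% of all genes. NCED3, the rate-limiting enzyme gene of abscisic acid synthesis, had 35.7, 36.5 and 45.2 CPM in med8, against 6.15, 8.79 and 5.75 CPM in Col-0 (2.50, SE 0.21, adjusted p = 1.48e-05). The cold-regulated genes COR15B (2.01), KIN2 (2.00), RD29A (1.5), COR15A (1.47), ERD10 (1.26) and KIN1 (1.14), most of them known CBF targets, were higher. KIN2 had 450, 430 and 496 CPM in med8, against 86.7, 129 and 128 CPM in Col-0 (adjusted p = 1.65e-05). LEA7, RD29B (-2.53), RAB18 (-2.39) and HAB1 (-0.55) were lower. RAB18 (AT5G66400), a dehydrin gene that abscisic acid induces, had 9.83, 11.01 and 11.4 CPM in med8, against 36.8, 31.7 and 99.98 CPM in Col-0 (adjusted p = 0.000776), with Col-0 replicate 3 far above the other 2.

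Of 25 jasmonate genes 7 were higher and 5 lower (median 0.19), against 10.8% and 12.9% of all genes. The lower count was 1 without med8 replicate 2, 2 without Col-0 replicate 2, and 3 without med8 replicate 1 or Col-0 replicate 3. MYC2, the master factor gene of jasmonate responses, had 119, 111 and 135 CPM in med8, against 52.8, 67.6 and 55.8 CPM in Col-0 (1.05, SE 0.11, adjusted p = 4.68e-05), and the lipoxygenase genes LOX3 and LOX4 were higher at 1.33 and 2.23. The storage protein genes VSP1 and VSP2, outputs of MYC2, were lower at -1.50 and -0.76, on control medium at -1.46 and -1.04. Of 6 genes of the ethylene and jasmonate defence branch, PR4 was called, lower at -0.98 (median -0.99 over the list), and lost that call without any 1 of the 6 libraries. PDF1.2 averaged 0.257 CPM in med8 and 0.890 CPM in Col-0 (adjusted p = 0.328). Of 15 ethylene genes 1 was higher and 4 were lower (median -0.18). The synthase gene ACS6 was higher at 55.0, 58.8 and 67.5 CPM in med8, against 15.3, 17.6 and 19.9 CPM in Col-0 (1.78, adjusted p = 8.99e-06), and the genes called lower included EBF2 (-0.54), CTR1 (-0.35) and EBF1 (-0.34).

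Of 19 root markers 7 were lower and 1 was higher (median -0.39), against 12.9% and 10.8% of all genes. Genes of triterpene synthesis were the lowest. THAS1, the thalianol synthase gene, had 39.5, 40.6 and 27.9 CPM in med8, against 92.1, 168 and 78.9 CPM in Col-0 (log2 fold change -1.65, adjusted p = 0.00377), and CYP708A2 of the same gene cluster was at -1.90. PYK10, an abundant root glucosidase gene, had 1054, 1086 and 1133 CPM in med8, against 1833, 2412 and 1661 CPM in Col-0 (-0.85, adjusted p = 0.0106). The root hair factor gene RHD6 was higher (0.86), and the endodermis genes CASP1 and CASP2 were at 0.10 and 0.07 and not called. Without med8 replicate 3 or Col-0 replicate 2, 4 root markers were called lower.

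Most genes called on methyl viologen were not called on control medium, where 2.81% of all tested genes were called higher and 2.98% lower. Of the 4906 called genes, 379 were called in the same direction on control medium, 136 higher and 243 lower, which is 7.73% of the methyl viologen calls and 31.6% of the control calls, and 252 genes were called on both media with opposite signs. Across all 20741 genes the log2 fold changes on the 2 media had a Pearson r of 0.092 and a Spearman rho of 0.106, given as a description. The difference between the 2 media was itself called for 2885 genes (13.9%; 6.25% in the upward and 7.66% in the downward direction), among them 2296 (46.8%) of the genes called on methyl viologen, and for 1817 of these the difference on control medium had the opposite sign. Of the 4906 genes, 2264 were called neither on control medium nor for the difference between media. For these a difference between the media was not shown. Among the genes called in the same direction on both media were FT, SEP3, FLC, VSP1 and QQS, a starch metabolism gene. On methyl viologen QQS averaged 7.92 CPM in med8 and 1.66 CPM in Col-0 (2.25), and without it 14.0 CPM in med8 and 2.81 CPM in Col-0 (2.31). These media comparisons draw on the same methyl viologen libraries as the main comparison.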

How the data were processed

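Whole seedlings were sequenced as 75 bp single-end reads from TruSeq Stranded mRNA libraries, per the labels' protocols. The authors deposited 1 table of whole-number counts per gene for 12 libraries. Trim Galore 0.3.3, TopHat2 2.1.0, featureCounts (Subread 1.4.6) and the TAIR10 genome are named in the submitters' processing notes, while the strand setting of the counting is not given in the sources used here. Library totals were 30472194 to 34694751 counts, and intervals and floors cover counting error only.

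Of 21543 genes, 20741 passed the filter on low counts (filterByExpr, a minimum count of 10 and a total of 15). The counts were scaled by TMM and fitted with edgeR 4.0.16 in R 4.3.3 (robust quasi-likelihood, 4 group means, all 12 libraries). Every adjusted p is from its quasi-likelihood test with Benjamini-Hochberg adjustment over all tested genes, and a gene was called at an adjusted p under 0.05. The contrasts were med8 minus Col-0 on methyl viologen, the same on control medium, and their difference. SE is the standard error of the log2 fold change. The procedure was checked on simulated counts.

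Members and gene lists were chosen with earlier results of these data known. Genes were named by rule, and those ranked by size or adjusted p had to carry a gene symbol. These were the 12 largest rises and 12 largest falls with non-overlapping libraries and at least 1 CPM. Added to these were the 6 smallest adjusted p in each direction and the 6 largest differences between media of each sign. Up to 4 called members of each list were named as well, or the 2 most expressed where none was called. MED8 and other list members, the latter as part of their family, were also given. Of the genes in the table, 21519 matched RefSeq, which gave symbols and promoters (TAIR10.1). Same-numbered replicates were checked for pairing. Replicates of each group differed by more than counting noise, and none was a duplicate. The alternatives tried were scaling by RLE or by upper quartiles, omission of the filter or one of 1 CPM, a replicate block, DESeq2 1.42.0, a fit of only the groups compared, leaving out each library, leaving out both control-medium libraries that stood apart, and promoters cut at the start. Values of some list members that enter the counts are not reported here.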

Additional observations from a re-analysis of the deposited data

Results flagged for a closer look

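The difference between med8 and Col-0 was itself different between the 2 media for 2885 genes (edgeR, adjusted p under 0.05). The genes below had the largest such differences among those with a symbol, a call on methyl viologen and at least 1 CPM there. Each value is the log2 fold change on methyl viologen minus that on control medium. Upward, they were PUM8 at 9.53, NAC061 at 8.78, CRK37 at 8.52, NAC090 at 8.01, ZAT7 at 7.81 and BAP2 at 7.58. Summed counts of NAC061 were 937 in med8 and 8 in Col-0 with methyl viologen, and 7 in med8 and 31 in Col-0 on control medium. Those of ZAT7, a zinc finger gene, were 1371 in med8 and 50 in Col-0 with methyl viologen, and 13 in med8 and 121 in Col-0 on control medium. CRK37 had 1444 in med8 and 28 in Col-0 with methyl viologen, and 23 in med8 and 184 in Col-0 on control medium. PUM8 had 148 in med8 and 2 in Col-0 with methyl viologen, and 0 in med8 and 4 in Col-0 on control medium, so its fitted value depends on the prior count. The calls of NAC061, NAC090 and CRK37 were lost without Col-0 control replicate 2, and that of PUM8 without Col-0 control replicate 1.

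Downward, they were LEA7 at -8.05, BHLH100 at -5.37, BHLH38 at -4.82, SAG29 at -4.47, BHLH101 at -4.37 and BHLH39 at -3.71. LEA7 had 33 counts in med8 and 1555 in Col-0 with methyl viologen, and 101 in med8 and 19 in Col-0 on control medium. Nearly all of the med8 counts on control medium came from replicate 2, with 0.0344, 3.375 and 0 CPM in the med8 libraries there. The LEA7 difference on control medium was not called (2.48, adjusted p = 0.333), and the call for the difference between media was lost without med8 control replicate 2. SAG29 had 236 counts in med8 and 2068 in Col-0 with methyl viologen, and 122 in med8 and 53 in Col-0 on control medium. The 4 bHLH factor genes kept their calls in each alternative run.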

How the results depend on the processing

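The number of genes called on methyl viologen, 4906, was 4964 with RLE scaling, 4897 with upper-quartile scaling, 4951 with no filter, 4702 with a filter of 1 CPM, 5506 with DESeq2, 6449 with only the groups compared and 7300 without both control-medium libraries that stood apart. Leaving out 1 library gave 3211 (without med8 replicate 2) to 6390. Genes higher in med8, 2231, ranged from 1379 (without Col-0 replicate 1; 1414 without med8 replicate 2) to 2993, and were 3500 without both control-medium libraries. Genes lower, 2675, ranged from 1797 to 3397, and at least 2-fold calls, 1311, from 1099 to 1422. The share of calls that were higher was 45.5%, 43.0% with RLE and 53.2% with upper-quartile scaling. Control-medium calls, 1200, were 2005 with DESeq2, 143 with only the groups compared, 1848 without both libraries and 402 to 1625 without 1 library (402, 446 and 631 without Col-0 replicate 3, Col-0 replicate 2 and med8 replicate 2 of that medium). Differences between media, 2885, were 4094 without both libraries and 1874 to 3332 without 1 library (1874 without med8 replicate 2 and 1912 without Col-0 replicate 1 on methyl viologen). MED8 stayed between -2.00 and -1.82 without any 1 library. Same-numbered med8 and Col-0 replicates on methyl viologen had correlations of their deviations from the group means of -0.03, 0.068 and -0.087. Over all pairs of the 4 groups these ranged from -0.379 to 0.458 and were positive throughout for replicate 2, but in no pair of groups were all 3 over 0.1, and not every sample correlated best with its own number, so the numbers were not taken as pairs. A fit with the replicate number as a block called 4571. No named gene changed direction, and of 159 named results the block lost 7 calls, DESeq2 none and the omission of med8 replicate 2 on methyl viologen 24. The cause of these shifts was not tested. Counts of 0 to 2 members in a list often changed with 1 library. Genes of under about 1 CPM rest on few counts.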

Other observations

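Sulfate assimilation and glutathione synthesis had 5 of 14 genes lower in med8 and none higher (median -0.29), against 12.9% and 10.8% of all genes. Without med8 replicate 2 or Col-0 replicate 3, 3 were lower. Among the lower were the sulfur deficiency genes ATSDI1, at 11.4 CPM in med8 and 42.1 CPM in Col-0 (-1.88, adjusted p = 0.000455), and BGLU28, at 3.55 CPM in med8 and 12.3 CPM in Col-0 (-1.79). Of 26 glucosinolate and camalexin genes 6 were higher and 2 lower (median 0.34), with 3 higher without med8 replicate 3 or Col-0 replicate 2 and 10 without both control-medium libraries that stood apart. CYP79F1, an entry enzyme gene of aliphatic glucosinolates, was higher at 288 CPM in med8 and 121 CPM in Col-0 (1.25), the myrosinase genes TGG1 and TGG2 at 0.52 and 0.63, and CYP71A13 of camalexin synthesis was lower at 19.9 CPM in med8 and 47.7 CPM in Col-0 (-1.26). CYP71A13 lies antisense to the iron-responsive locus AT2G30766 (-2.06), and on control medium CYP71A13 and AT2G30766 were at 0.97 and 1.03. Whether reads of the pair were told apart in the counting was not tested. Of 12 sugar starvation and transport genes 2 were higher and 4 lower (median -0.28). DIN10, a dark-induced raffinose synthase gene, was lower at 55.1 CPM in med8 and 207 CPM in Col-0 (-1.91, adjusted p = 1.5e-05), with SAG29, SEN1 (AT4G35770, -0.95) and SWEET11 (-0.74), while QQS and ASN1 (0.95) were higher.

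Of all tested genes 10.8% were higher in med8 and 12.9% lower, and the heat shock and phosphate counts were close to these shares. Of 14 heat shock and chaperone genes 2 were higher and 2 lower (median 0.17), and at most 1 each way without any 1 of the 6 libraries. HSP23.6-MITO, a mitochondrial small heat shock protein gene, averaged 3.17 CPM in med8 and 0.195 CPM in Col-0 (3.99, adjusted p = 0.000347), and the call of BIP3 (2.06) was lost in 9 settings. Of 17 phosphate starvation genes 2 were higher, the galactolipid synthase genes MGDC (0.96) and MGD2 (0.73), and 2 lower, PAP17 (-0.64) and SQD2 (-0.21, lost in 9 settings), with a median of -0.01. The lower phosphate count was 1 without any 1 of the 6 libraries except Col-0 replicate 3. Of 12 cell division genes 4 were higher and 1 lower (median 0.33), the ribonucleotide reductase gene TSO2 at 84.4 CPM in med8 and 146 CPM in Col-0 (-0.79). The higher count was 1 without med8 replicate 2, med8 replicate 3 or Col-0 replicate 2, and 2 without Col-0 replicate 1. Of 15 expansin genes 4 were higher and none lower (median 0.20), led by EXPA11 at 45.0 CPM in med8 and 26.0 CPM in Col-0 (0.79), and 1 was higher without med8 replicate 1 and 2 without Col-0 replicate 2 or 3. Auxin response genes had 1 of 17 higher and 4 lower (median -0.19), and light and shade genes 1 of 10 higher and 3 lower (median -0.16), all by less than 1 on the log2 scale. No auxin gene was called lower without med8 replicate 2, 1 was without Col-0 replicate 2, and 2 were without any other library of the comparison except Col-0 replicate 3. The higher auxin gene was not called without any 1 of the 6 libraries except Col-0 replicate 2, and 1 light and shade gene was called lower without med8 replicate 3.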
